A study of Mus musculus with 6 samples.

Results

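The ubiquitin ligase genes of striated muscle and the FOXO transcription factors that drive several of them were followed in cardiomyocyte (CM) nuclei of mouse hearts overexpressing (OE) YAP variants. The group held 9 genes, chosen by symbol and matched to the count table by Ensembl identifier through the GENCODE M21 annotation. They were *Trim63*, *Trim55* and *Trim54*, *Fbxo32* and *Fbxo30*, *Foxo1*, *Foxo3* and *Foxo4*, and *Arel1*. All 9 were among the 54532 genes of the table, and all 9 were among the 13323 genes that passed the filter on low counts. Wild-type ICR mice, of both sexes per the study's methods, received 1e+11 viral genomes of AAV9 at 6 d of age, and hearts were collected at 9 d. The cTnT promoter, active in CMs, drove GFP in the control group, YAP5SA, whose serines phosphorylated by LATS1/2 are replaced with alanine, or YAP6SA, which adds an alanine substitution that disrupts the interaction with TEAD. Nuclei were bound through PCM-1, a protein of the CM nuclear surface, and poly-A nuclear RNA was sequenced in 2 libraries per group, 1 in each of 2 batches. The virus was delivered to every group, so GFP OE CMs controlled for infection and for the promoter.

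Muscle protein is removed largely by the ubiquitin-proteasome system, in which an E3 ligase picks the substrate. The MuRF proteins are RING-finger ligases of the sarcomere that bind titin, and atrogin-1 and MUSA1 are F-box proteins that bring substrates to SCF ligase complexes. FOXO factors enter the nucleus when Akt signaling is low and there activate atrogin-1, MuRF1 and other genes of muscle atrophy, and in the heart MuRF1 and atrogin-1 restrain hypertrophic growth. *Arel1* encodes a HECT-type ligase that acts on proteins released from mitochondria during apoptosis.

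Between 14552847 and 19615627 reads per library were counted on genes, and replicates of a group differed by 25.3 to 39.6 times the sampling noise of counts (chi-square per degree of freedom). *Yap1* did not separate the groups, at 102 to 139 CPM (reads of a gene relative to the TMM-scaled total of the library) in all 6 libraries, and the counts therefore do not check the virus labels. All 8 CM markers were detected in every library. *Xist* had 0 to 8 counts in the libraries of batch 1 and 9350 to 10550 in those of batch 2, whereas Y-linked *Ddx3y* had 1148 to 2881 counts in all 6 libraries. The sexes represented therefore differed with the batch, each batch held all 3 groups, and sex and batch cannot be told apart.

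The MuRF genes lie at 3 loci of GRCm38, *Trim63* (ENSMUSG00000028834) at chr4:134315120-134329629 on the plus strand, *Trim55* (ENSMUSG00000060913) at chr3:19644474-19692421 on the plus strand and *Trim54* (ENSMUSG00000062077) at chr5:31116712-31137630 on the plus strand. The F-box genes are *Fbxo32* (ENSMUSG00000022358) at chr15:58175879-58214932 on the minus strand and *Fbxo30* (ENSMUSG00000047648) at chr10:11281330-11298052 on the plus strand. *Foxo1* (ENSMUSG00000044167) lies at chr3:52268336-52353221 on the plus strand, *Foxo3* (ENSMUSG00000048756) at chr10:42181841-42276755 on the minus strand and *Foxo4* (ENSMUSG00000042903) at chrX:101254528-101260873 on the plus strand. *Arel1* (ENSMUSG00000042350) lies at chr12:84918148-84970900 on the minus strand. Counts were made over annotated exons without regard to strand, so reads shared with an overlapping gene cannot be placed. Exons of the antisense gene *Gm15469* cover 26.6% of the exon bases of *Trim54*, and *Gm15469* had 75 counts in 6 libraries beside 450 for *Trim54*. Antisense genes cover 2.67% of the exon bases of *Fbxo32*, 7.78% of *Foxo1* and 9.45% of *Arel1*.

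RefSeq promoter windows of GRCm38.p6, 300 bases from 250 before to 50 after the transcription start, were matched for 6 of the 9 genes, *Trim63*, *Trim54*, *Fbxo30*, *Foxo1*, *Foxo3* and *Arel1*. *Fbxo32*, *Trim55* and *Foxo4* had no entry. The window of *Arel1*, chr12:84946874-84947173, lies inside the gene. It does not cover the position 84970900 where this minus-strand gene begins in the annotation. The letters TGTTTAC, a FOXO binding motif, and GGAATG, the core of the TEAD binding motif, were searched on both strands. The FOXO letters occurred in 1 of the 6 windows, that of *Trim63*, where they begin 194 bases before the start, and in 3.65% of all 32851 windows. TEAD letters occurred in 3 of the 6 windows, those of *Trim63*, *Trim54* and *Foxo3*, and in 14.7% of all windows. The 250 bases before the start are shown for *Trim63*, the gene with both motifs and the one whose level differed in YAP5SA OE CMs from both other groups, and for its family member *Trim54*. Capitals mark the motif letters, which do not overlap, and CATTCC is GGAATG on the other strand.
*Trim63*, chr4:134314870-134315119, plus strand: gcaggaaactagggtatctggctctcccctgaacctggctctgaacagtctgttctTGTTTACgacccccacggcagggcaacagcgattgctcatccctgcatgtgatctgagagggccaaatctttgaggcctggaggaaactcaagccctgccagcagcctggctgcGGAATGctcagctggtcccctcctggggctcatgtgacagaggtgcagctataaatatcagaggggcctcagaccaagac
*Trim54*, chr5:31116362-31116611, plus strand: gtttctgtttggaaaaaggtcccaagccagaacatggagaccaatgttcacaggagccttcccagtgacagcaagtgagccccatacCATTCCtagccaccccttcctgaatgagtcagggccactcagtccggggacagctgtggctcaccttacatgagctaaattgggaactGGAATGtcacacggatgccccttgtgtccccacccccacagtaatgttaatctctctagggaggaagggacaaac
In *Trim63* the FOXO letters are followed by TEAD letters that begin 80 bases before the start. In *Trim54* TEAD letters begin 163 bases before the start on the reverse strand and 75 bases before it on the forward strand. No binding was measured, and these matches are descriptions of sequence.

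Per length of exon, *Trim63* was the most abundant of the 9 transcripts and *Foxo1* the least abundant in each of the 6 libraries. In GFP OE CMs the level of *Trim63* was 124 ± 12.8 CPM per kb of exon (SD, n = 2), above that of 98.4% of tested genes. *Trim55* followed at 61.0 ± 4.71 CPM per kb, above 95.5% of tested genes. *Arel1* (18.4 ± 4.43 CPM per kb) and *Fbxo32* (10.5 ± 4.18 CPM per kb) came next and did not differ beyond their spread. The remaining levels per kb were 5.16 ± 0.972 for *Fbxo30*, 3.75 ± 0.868 for *Foxo4*, 2.62 ± 0.689 for *Trim54*, 2.52 ± 0.355 for *Foxo3* and 1.38 ± 0.170 for *Foxo1*. Within this lower part, the neighbors from *Fbxo30* down to *Foxo3* did not differ beyond their spread, while *Foxo3* and *Foxo1* did. The levels of *Foxo1*, *Foxo3* and *Foxo4* were thus above those of 18.5% to 39.4% of tested genes. *Trim63* and *Trim55* kept the top positions in YAP6SA OE CMs, at 133 ± 12.2 and 102 ± 14.4 CPM per kb, and in YAP5SA OE CMs, at 86.9 ± 1.17 and 73.3 ± 11.9 CPM per kb. In YAP5SA OE CMs *Fbxo30* (6.92 ± 0.324 CPM per kb) stood above *Fbxo32* (5.02 ± 0.512 CPM per kb), the reverse of their order in GFP OE CMs. In YAP6SA OE CMs *Fbxo32* (9.56 ± 3.42 CPM per kb) and *Fbxo30* (5.32 ± 1.43 CPM per kb) did not differ beyond their spread. With the longest transcript in place of all annotated exons as the length, *Trim63*, *Trim55* and *Foxo1* held the same positions in every library.

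**Figure D1:**
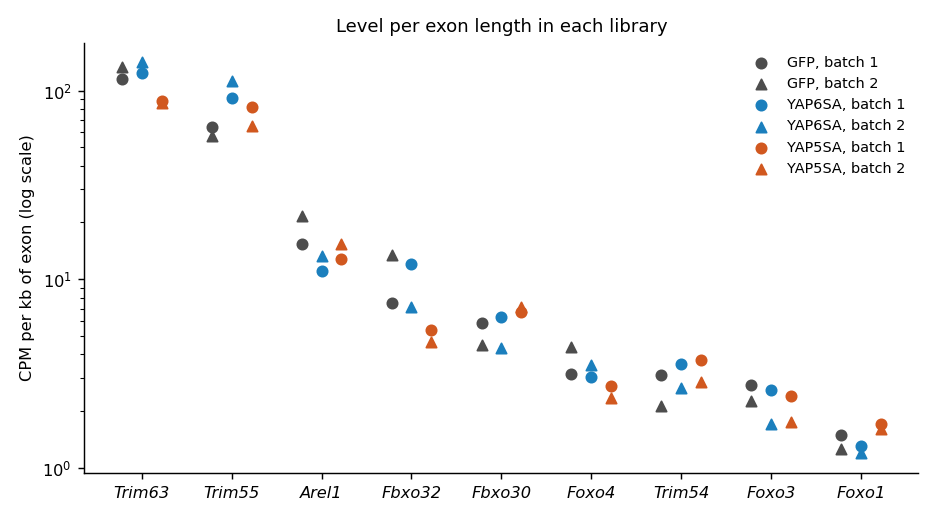
Level of each gene per kb of annotated exon, as TMM-scaled CPM per kb on a log axis, in each of the 6 libraries (circles batch 1, triangles batch 2, colors the groups). *Trim63* and *Trim55* lie above the other 7 genes in every library, and *Foxo1* is lowest in every library.

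Genes were called changed at a false discovery rate (FDR, the Benjamini-Hochberg adjusted p of edgeR's quasi-likelihood test over all 13323 genes) under 0.05. In YAP5SA against GFP OE CMs, 2 of the 9 genes were called, both lower, against 22% of all tested genes called in either direction, 12.8% higher and 9.18% lower. In YAP5SA against YAP6SA OE CMs, 1 of the 9 was called, again lower, against 14.7% in either direction, 9% higher and 5.68% lower. No member passed in YAP6SA against GFP OE CMs, where 0.045% of tested genes did, all of them higher and 0% lower. At an unadjusted p under 0.05, 2 of the 9 genes, *Trim55* and *Arel1*, differed between YAP6SA and GFP OE CMs, against 5.93% of all tested genes. In these data the study had named *Arel1* among genes down-regulated with YAP6SA, where it reported genes in both directions at an FDR under 0.05. The members were chosen with earlier results known. Counts of members are therefore descriptions. A joint test of the 3 groups called 3 of the 9, *Trim63*, *Trim55* and *Arel1*, against 17.6% of all tested genes. The libraries of the groups did not overlap for 6 of the 9 genes in YAP5SA against GFP, against 60.9% of all tested genes, for 6 in YAP5SA against YAP6SA (57.6%) and for 2 in YAP6SA against GFP (34.3%). The labels do not say which animals gave each library, so p-values measure the spread between these libraries.

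**Figure D2:**
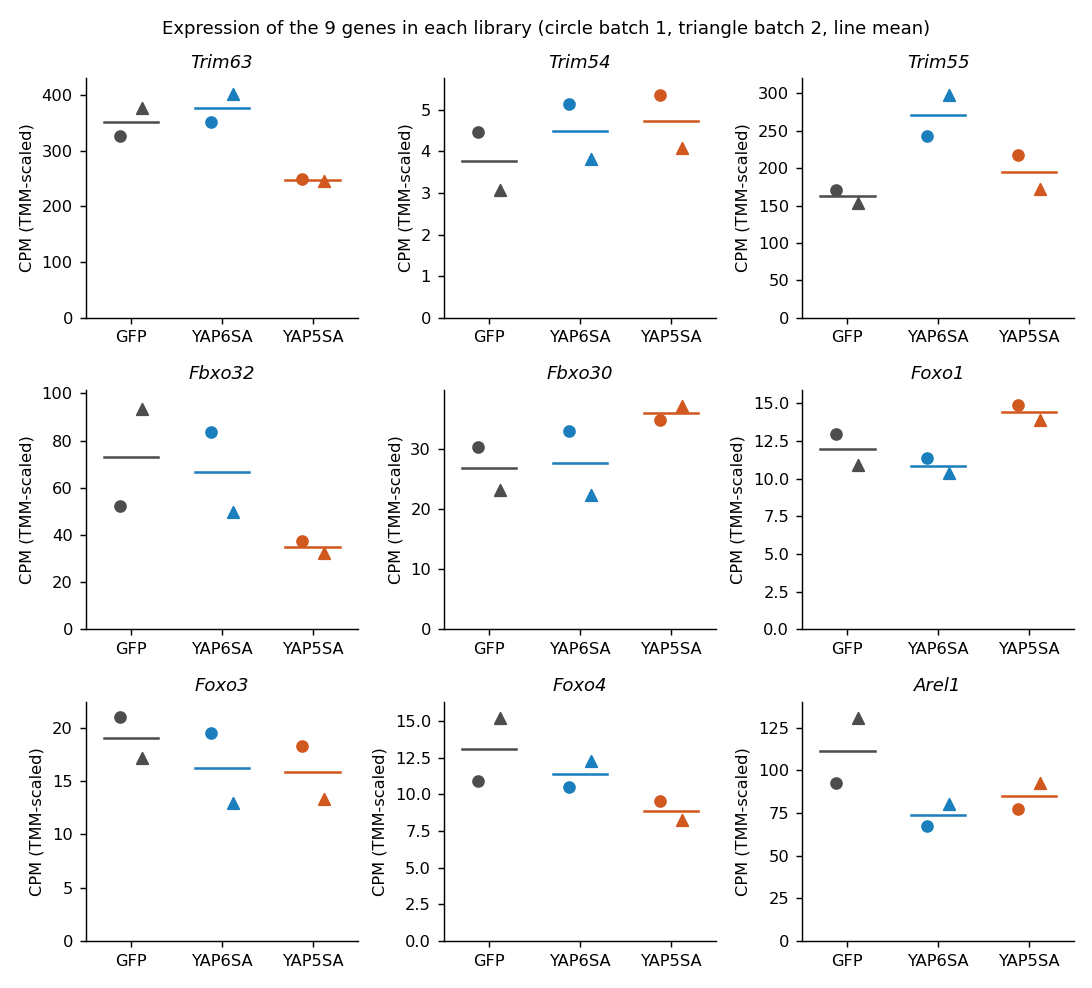
Expression of the 9 genes in TMM-scaled CPM, with 1 panel per gene and the 3 groups on the x axis (circles batch 1, triangles batch 2, horizontal lines the group means, n = 2 libraries). *Trim63* and *Fbxo32* are lowest in both YAP5SA libraries, *Trim55* is highest in both YAP6SA libraries, and *Fbxo32* differs widely between the 2 GFP and between the 2 YAP6SA libraries.

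Of the MuRF genes, *Trim63* was lower in YAP5SA OE CMs and *Trim55* was highest in YAP6SA OE CMs. *Trim63* encodes MuRF1, a ligase for thick-filament proteins of the sarcomere. In batches 1 and 2 its expression was 325 and 377 CPM in GFP, 352 and 401 CPM in YAP6SA, and 249 and 245 CPM in YAP5SA OE CMs. Both YAP5SA libraries were below all 4 others, and the GFP and YAP6SA ranges overlapped. Expression in YAP5SA OE CMs was 29.4% lower than in GFP OE CMs (log2 fold change -0.50 ± 0.16 SE, edgeR FDR = 0.0462), with differences of -0.38 and -0.62 in batches 1 and 2. Against YAP6SA OE CMs it was 34.2% lower (log2 fold change -0.60 ± 0.16 SE, edgeR FDR = 0.0311). YAP6SA and GFP OE CMs differed by 0.10 on the log2 scale, with a 95% interval from -0.25 to 0.45. The *Trim63* calls lie close to the threshold and depend on single libraries. Against GFP, the call was lost when any of 5 of the 6 libraries was left out, at an edgeR FDR of 0.110 to 0.365, and held without YAP5SA replicate 1, at 0.00650. In YAP5SA against YAP6SA the call held in 2 of the 6 fits with a library left out. The fits of only the 4 libraries compared lost both calls, at an edgeR FDR of 0.107 against GFP and 0.0550 against YAP6SA.

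*Trim55* encodes MuRF2, which associates with titin and microtubules. Its expression was 171 and 153 CPM in GFP, 243 and 298 CPM in YAP6SA, and 217 and 173 CPM in YAP5SA OE CMs. The 3 groups did not overlap, by a narrow margin between GFP and YAP5SA, and ran in the order GFP, YAP5SA, YAP6SA. The joint test across groups passed (edgeR FDR = 0.0374). In YAP6SA against GFP OE CMs the log2 fold change was 0.74 ± 0.18 SE, a ratio of 1.67 with a 95% interval from 1.27 to 2.20, and it did not pass over all genes (edgeR FDR = 0.382). A fit of those 4 libraries alone, which calls 2.07% of all tested genes, 1.49% higher and 0.585% lower, gave an edgeR FDR of 0.00160. Of the 8 alternatives other than leaving 1 library out, only 2 called it, that fit and the one with no filter. DESeq2 gave an FDR of 0.0834, and edgeR without the batch term 0.998. With a library left out the log2 fold change ran from 0.46 to 1.00. It was 0.73 without either of the YAP5SA libraries, which are not part of this comparison. In YAP5SA OE CMs the log2 difference was 0.26 from GFP (edgeR FDR = 0.319) and -0.48 from YAP6SA (edgeR FDR = 0.0998).

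The balance within the MuRF family was described by shares, which were not tested. Of the summed MuRF level per kb, *Trim63* made up 62.9% and 68.9% in GFP, 56.6% and 55.2% in YAP6SA, and 50.7% and 55.9% in YAP5SA OE CMs. Both GFP libraries were above the 4 YAP libraries, while the YAP6SA and YAP5SA ranges overlapped. *Trim63* had 1.90 and 2.46 reads for each *Trim55* read in GFP, 1.45 and 1.35 in YAP6SA, and 1.15 and 1.42 in YAP5SA OE CMs. *Trim54*, which encodes the microtubule-binding MuRF3, made up 1.04% to 2.16% of the family. It had 47 to 101 counts per library, at 4.47 and 3.07 CPM in GFP, 5.14 and 3.82 CPM in YAP6SA, and 5.37 and 4.09 CPM in YAP5SA OE CMs. The ranges of the groups overlapped in every comparison, and at this depth the 95% interval of YAP5SA against GFP ran from -0.49 to 1.16 on the log2 scale.

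The F-box genes differed in direction in YAP5SA OE CMs. *Fbxo32* encodes atrogin-1, a marker of muscle atrophy that in the heart targets calcineurin. Its expression was 52.4 and 93.6 CPM in GFP, 83.6 and 49.8 CPM in YAP6SA, and 37.6 and 32.5 CPM in YAP5SA OE CMs. Both YAP5SA libraries were below the other 4, and the GFP and YAP6SA ranges overlapped, with opposite batches high. In YAP5SA OE CMs expression was 52.2% lower than in GFP OE CMs (log2 fold change -1.06 ± 0.30 SE, edgeR FDR = 0.0319), and the differences were -0.48 in batch 1 and -1.53 in batch 2. The size depended on the GFP libraries. Without that of batch 2 the log2 fold change was -0.34 (edgeR FDR = 0.543), without the GFP library of batch 1 it was -1.65, and without YAP5SA replicate 2 the call was lost at an edgeR FDR of 0.0662. Against YAP6SA OE CMs the log2 fold change was -0.93 ± 0.30 SE (edgeR FDR = 0.0652), with -1.15 and -0.62 within batches 1 and 2. It was -0.33 without YAP6SA replicate 1 and -1.40 without YAP6SA replicate 2, and it passed by the likelihood ratio test, DESeq2, the fit with no filter and the fit of those 4 libraries alone. In YAP6SA against GFP OE CMs *Fbxo32* differed by 0.67 on the log2 scale in batch 1 and by -0.91 in batch 2, and the fitted value of -0.14 had a 95% interval from -0.80 to 0.53.

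*Fbxo30* encodes MUSA1, an F-box protein that BMP signaling holds down in skeletal muscle. It was at 30.4 and 23.2 CPM in GFP, 32.9 and 22.4 CPM in YAP6SA, and 34.8 and 37.2 CPM in YAP5SA OE CMs. YAP5SA OE CMs held the highest libraries, with a log2 fold change of 0.45 ± 0.21 SE against GFP OE CMs that did not pass (edgeR FDR = 0.151). There were 1.72 and 4.03 reads of *Fbxo32* for each read of *Fbxo30* in GFP, 2.54 and 2.23 in YAP6SA, and 1.08 and 0.875 in YAP5SA OE CMs. This ratio was lower in both YAP5SA libraries than in the other 4 and was not tested.

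No FOXO gene was called in any comparison. *Foxo1*, the FOXO factor best known from insulin signaling, was at 13.0 and 10.9 CPM in GFP, 11.3 and 10.4 CPM in YAP6SA, and 14.9 and 13.9 CPM in YAP5SA OE CMs. The YAP5SA libraries stood above the other 4, and the log2 fold change against GFP OE CMs was 0.27 with a 95% interval from -0.25 to 0.80 (edgeR FDR = 0.438). *Foxo3*, the FOXO factor first tied to atrogin-1 induction in atrophy, was at 21 and 17.2 CPM in GFP, 19.5 and 13.0 CPM in YAP6SA, and 18.3 and 13.3 CPM in YAP5SA OE CMs. All 3 groups overlapped for *Foxo3*, batch 2 was below batch 1 in each of them, and the batch term was -0.44 on the log2 scale (edgeR FDR = 0.360). *Foxo4*, the X-linked member, was at 10.9 and 15.2 CPM in GFP, 10.5 and 12.3 CPM in YAP6SA, and 9.54 and 8.24 CPM in YAP5SA OE CMs. The lowest libraries were those of YAP5SA OE CMs, with a log2 fold change against GFP OE CMs of -0.54 ± 0.27 SE (edgeR FDR = 0.182) and differences of -0.20 and -0.88 in batches 1 and 2. Of the level per kb summed over *Foxo1*, *Foxo3* and *Foxo4*, *Foxo1* made up 20.2% and 16.0% in GFP, 18.9% and 18.6% in YAP6SA, and 25% and 28% in YAP5SA OE CMs, and the share of *Foxo4* was lowest in the YAP5SA libraries, at 39.8% and 41.3%. *Foxo6*, which is not a member, was left out of this sum although it was expressed, at a mean log2 CPM of 3.88. Its log2 fold change in YAP5SA against GFP OE CMs was -0.46 (edgeR FDR = 0.254). These values are transcript levels. FOXO activity is set largely by phosphorylation and location of the protein, which were not measured here.

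*Arel1* was lowest in YAP6SA OE CMs. Its 92.5 and 130.4 CPM in GFP stood beside 67.2 and 80.3 CPM in YAP6SA and 77.4 and 92.6 CPM in YAP5SA OE CMs. GFP and YAP6SA did not overlap, and YAP5SA overlapped both. The joint test passed (edgeR FDR = 0.0454), whereas YAP6SA against GFP, at a log2 fold change of -0.58 ± 0.15 SE, did not (edgeR FDR = 0.437). In the fit of those 4 libraries alone it passed at an edgeR FDR of 0.0139, where 0.585% of all tested genes were called lower. This was the only call for it among the 8 alternatives other than leaving 1 library out. DESeq2 gave an FDR of 0.311, and edgeR without the batch term 0.998. With a library left out its log2 fold change ran from -0.70 to -0.46. Leaving out either YAP5SA library, which keeps the libraries compared, gave -0.58. YAP5SA against GFP OE CMs gave -0.38 ± 0.15 SE (edgeR FDR = 0.0917), and the direct difference between the variants was 0.20, with a 95% interval from -0.12 to 0.53.

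**Figure D3:**
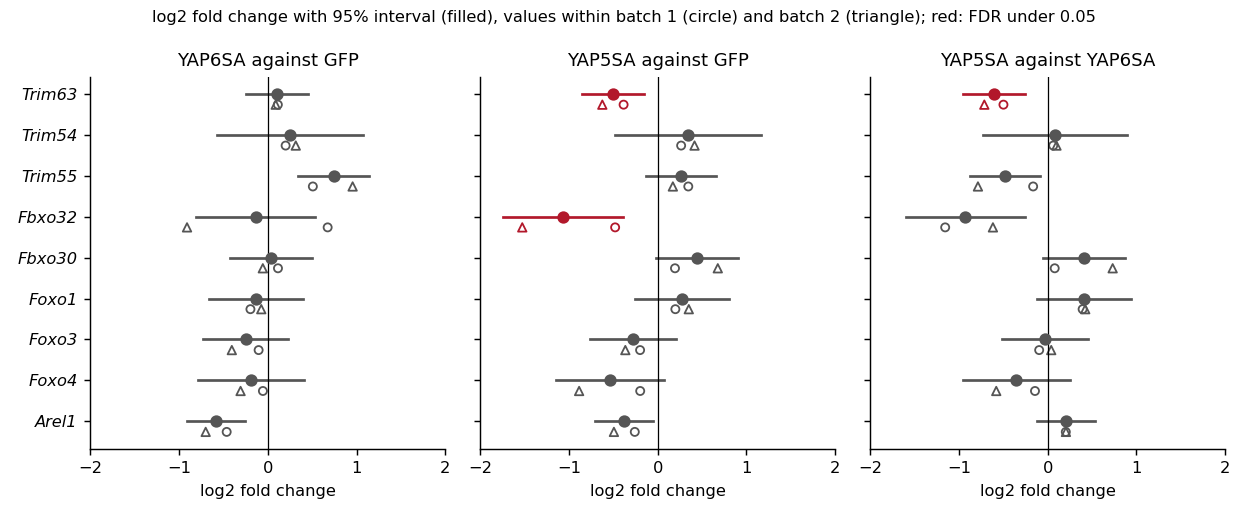
Fitted log2 fold change of each gene with its 95% interval (filled points and bars, edgeR), and the difference within batch 1 (open circles) and batch 2 (open triangles), for the 3 comparisons. Red marks an FDR under 0.05, which *Trim63* and *Fbxo32* reach against GFP and *Trim63* against YAP6SA, and *Fbxo32* in YAP6SA against GFP has the batches on opposite sides of 0.

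The direction was the same in both batches for 9 of the 9 genes in YAP5SA against GFP, for 8 in YAP5SA against YAP6SA and for 7 in YAP6SA against GFP. The same share over all tested genes was not computed, so these counts do not set the members apart from other genes. The marker genes of CMs were lower in sum in both YAP5SA libraries, though not each of them. Their summed level was 49540 to 66510 CPM in GFP, 47340 to 60880 CPM in YAP6SA and 30350 to 41610 CPM in YAP5SA OE CMs, none of the 8 was at 0, and 2 of the 8 were called lower in YAP5SA against GFP. The median log2 fold change of the 8 markers there was -0.76, beside -0.50 for *Trim63* and -1.06 for *Fbxo32*. The GFP and YAP5SA ranges overlapped for *Actn2* and *Myl2*, but not for the other CM markers. *Actn2* was at 930 and 1787 CPM in GFP and 1136 and 1018 CPM in YAP5SA OE CMs. *Myl2* was at 3340 and 4033 CPM in GFP and 3562 and 3152 CPM in YAP5SA OE CMs. Fewer CM nuclei and less RNA of a gene per nucleus cannot be told apart in these libraries, and their part in the *Trim63* and *Fbxo32* results was not tested. Fibroblast markers summed to 842 to 1344 CPM in GFP and 881 to 1466 CPM in YAP5SA OE CMs, with none of the 7 called. Endothelial markers summed to 489 to 634 CPM in GFP and 540.0 to 665 CPM in YAP5SA OE CMs, with 1 of 7 called higher. In the same 2 groups macrophage markers summed to 58.7 to 80.5 CPM and 82.2 to 130.8 CPM, with 2 of 6 tested called higher. Mural cell markers summed to 444 to 528 CPM in GFP and 305 to 377 CPM in YAP5SA OE CMs, with 1 of 5 called lower. *Abcc9* held most of that sum, at 272 and 387 CPM in GFP and 216 and 156 CPM in YAP5SA OE CMs. *Pdgfrb* and *Cspg4* overlapped between these groups. *Kcnj8* was lower and *Rgs5* higher in YAP5SA OE CMs, each by a narrow margin. Erythroid genes summed to 48.7 to 59.4 CPM in GFP and 31.7 to 46.8 CPM in YAP5SA OE CMs, with none of 2 tested called. Of the skeletal muscle markers, *Myh4* and *Myod1* had 0 counts in all 6 libraries, which allows up to 3 counts in each, while *Myh1*, *Myh2* and *Myog* had counts in both YAP5SA libraries and 0 in the 4 others. The rest of that list did not share this pattern. *Tnnt3* was at 2.2 and 1.2 CPM in GFP and 3.0 and 1.9 CPM in YAP5SA OE CMs, and *Actn3* had 0 to 3 counts per library. *Ckm* was at 49.8 and 61.1 CPM in GFP, 102 and 87.3 CPM in YAP6SA, and 68.6 and 23.5 CPM in YAP5SA OE CMs.

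**Figure D4:**
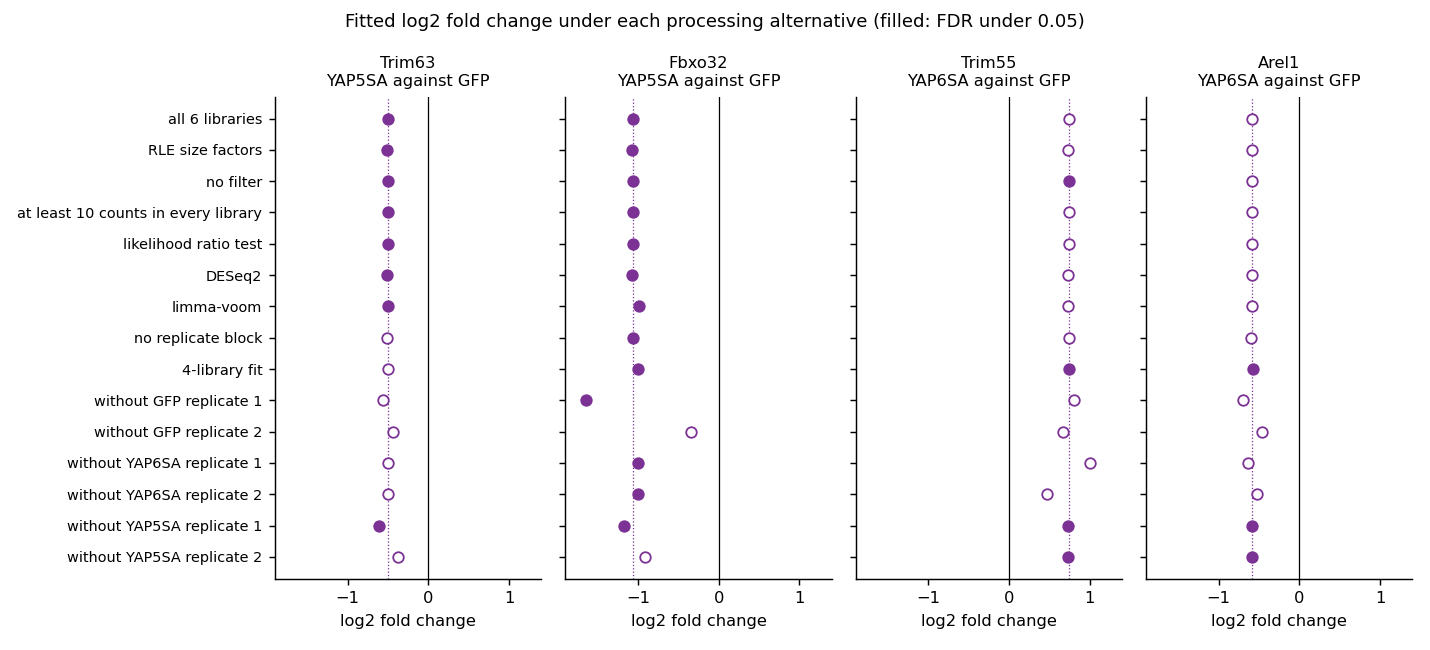
Fitted log2 fold change of *Trim63* and *Fbxo32* in YAP5SA against GFP and of *Trim55* and *Arel1* in YAP6SA against GFP, under all 6 libraries and each alternative (rows), with filled points for an FDR under 0.05. The 8 alternatives that keep all libraries of a comparison leave the 4 values nearly in place, and *Fbxo32* moves most, from -1.65 to -0.34, when a GFP library is left out.

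The other genes of the pathway were taken from 8 lists with 208 genes, written with earlier results of these data known. Shares of called genes in these lists are therefore descriptions and not tests. FOXO target genes were more often lower than higher in YAP5SA OE CMs. Of 24 tested targets, 2 were called higher and 9 lower against GFP, with a median log2 fold change of -0.22 beside -0.00 over all tested genes, and 1 was called higher and 9 lower against YAP6SA, with a median of -0.49 beside -0.01. These were 45.8% and 41.7% of the targets, beside 22% and 14.7% of all tested genes. In YAP6SA against GFP OE CMs 1 of 24, *Irs2*, was called. Antioxidant genes were among those that fell against GFP, namely *Cat*, catalase, by 0.92 on the log2 scale (edgeR FDR = 0.00530), *Sod2*, the mitochondrial superoxide dismutase, by 0.58 (edgeR FDR = 0.0213), and the stress-response genes *Sesn1* and *Sesn3* by 0.91 and 0.84. *Txnip*, a thioredoxin inhibitor, fell by 1.30, with -2.05 in batch 1 and -0.41 in batch 2. The F-box genes *Fbxo31* and *Fbxo21* fell by 0.81 and 0.76. Those that rose encode receptor-proximal parts of insulin and IGF signaling, *Irs2* at 1.66 and *Igf1r* at 1.19 on the log2 scale, while the insulin receptor gene *Insr* fell by 0.70. *Igf1r* was at 60.5 and 56.1 CPM in GFP, 69.4 and 65.2 CPM in YAP6SA, and 120.3 and 146 CPM in YAP5SA OE CMs, and the YAP5SA libraries stood apart from the other 4. *Pdk4*, which restrains glucose oxidation, fell by 1.48 in YAP5SA against YAP6SA OE CMs (edgeR FDR = 0.0198), while its GFP libraries spread from 178 to 695 CPM. The count of called targets in YAP5SA against GFP was 5 to 12 with a library left out, and in YAP5SA against YAP6SA it was 0 to 13 with a library left out and 2 without the batch term.

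**Figure D5:**
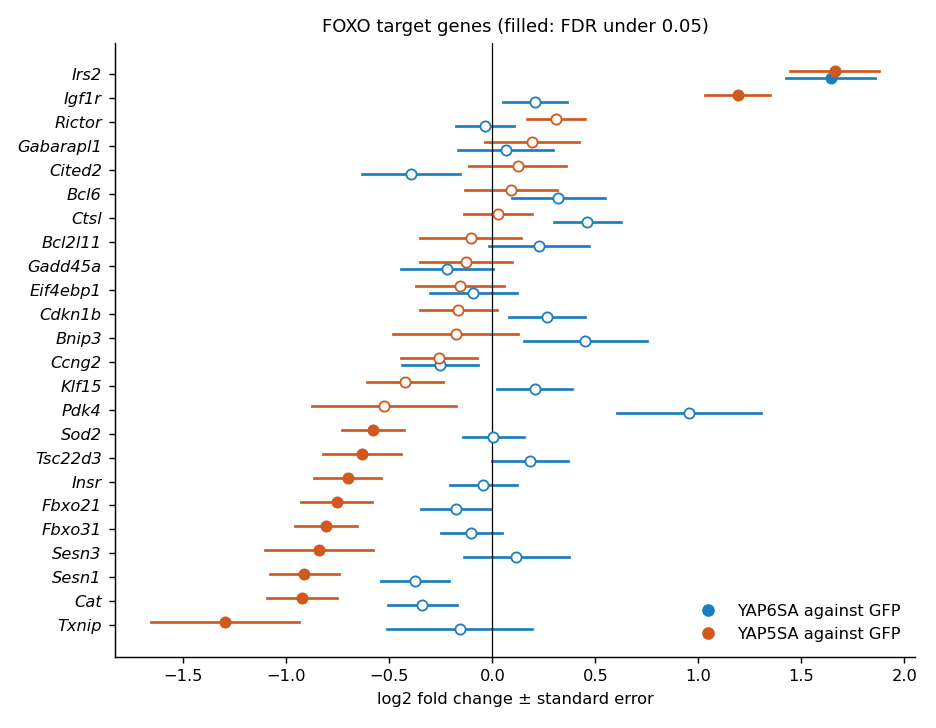
Log2 fold change with its standard error for the 24 tested FOXO target genes in YAP6SA against GFP (blue) and YAP5SA against GFP (orange), which share the GFP libraries, with filled points for an FDR under 0.05. In YAP5SA OE CMs 9 genes are called lower and 2 higher, and in YAP6SA OE CMs *Irs2* alone is called.

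Among 39 regulators of FOXO proteins, 5 were called higher and 1 lower in YAP5SA against GFP OE CMs, 3 higher and 1 lower in YAP5SA against YAP6SA, and none in YAP6SA against GFP. *Skp2*, an F-box protein that targets FOXO1 for degradation, was at 8.25 and 5.03 CPM in GFP, 8.04 and 9.94 CPM in YAP6SA, and 22.3 and 36.5 CPM in YAP5SA OE CMs. The YAP5SA libraries stood above the other 4 (log2 fold change against GFP 2.11 ± 0.33 SE, edgeR FDR = 0.00266). *Pik3r1*, a regulatory subunit of PI3K, was at 1.16 on the log2 scale against YAP6SA (edgeR FDR = 0.00438), and *Sirt3*, a mitochondrial deacetylase, fell by 1.20 against GFP (edgeR FDR = 0.00522) and by 1.08 against YAP6SA. The calls were 15.4% of the list against GFP and 10.3% against YAP6SA, below the 22% and 14.7% of all tested genes, and the list's median against GFP was -0.01.

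Other ubiquitin ligases of muscle went lower where they were called. Of 36 tested, 5 were called lower and none higher in YAP5SA against GFP OE CMs (median -0.20), 6 lower and none higher in YAP5SA against YAP6SA (median -0.11), and none in YAP6SA against GFP. The calls were 13.9% and 16.7% of the list, beside 22% and 14.7% of all tested genes called in either direction and 9.18% and 5.68% called lower. Besides *Fbxo31* and *Fbxo21*, which are also in the FOXO target list, the largest were the sarcomeric F-box gene *Fbxl22* (log2 fold change against YAP6SA -1.07, edgeR FDR = 0.00755), *Asb2*, a cullin adaptor that targets filamins (-1.07, edgeR FDR = 0.0448), and the kelch gene *Klhl31* (-0.86, edgeR FDR = 0.0101). *Fbxl22* was at 178 and 129.5 CPM in GFP, 378 and 294 CPM in YAP6SA, and 231 and 106 CPM in YAP5SA OE CMs, so that the YAP6SA libraries were the high ones. *Asb2* was at 748 and 979 CPM in GFP, 1253 and 1128 CPM in YAP6SA, and 815 and 362 CPM in YAP5SA OE CMs. Its YAP6SA libraries were the highest and its YAP5SA library of batch 2 the lowest. Against GFP the log2 fold change of *Asb2* was 0.44 in YAP6SA and -0.63 in YAP5SA OE CMs, neither called. Without the batch term, 3 were called lower against GFP and none against YAP6SA.

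Among 25 partners and substrates of the MuRF proteins and atrogin-1, the transcription factor gene *Srf* was the single call in YAP6SA against GFP OE CMs. In YAP5SA against GFP, *Srf* was called higher (log2 fold change 0.92, edgeR FDR = 0.00544) and *Ube2d1*, a ubiquitin-conjugating enzyme, lower (-0.70, edgeR FDR = 0.0168), with a list median of -0.27. Against YAP6SA, *Ppp3ca*, the calcineurin catalytic subunit that atrogin-1 targets, was higher by 0.97 (edgeR FDR = 0.00918), *Ckm*, muscle creatine kinase, fell by 1.14 and the phosphatase gene *Dusp1* fell by 0.75. None of these genes was called against GFP. *Ppp3ca* was at 104 and 112 CPM in GFP, 74.1 and 74.9 CPM in YAP6SA, and 113 and 186 CPM in YAP5SA OE CMs, so that the YAP6SA libraries were the low ones. For *Ckm* they were the high ones, at 102 and 87.3 CPM beside 49.8 and 61.1 CPM in GFP and 68.6 and 23.5 CPM in YAP5SA OE CMs. The calls were 8% of the list against GFP and 12% against YAP6SA, below the 22% and 14.7% of all tested genes. *Ckm* shares 15.5% of its exon bases with an antisense gene.

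Of 20 regulators of atrophy gene transcription, 5 were called higher and 2 lower in YAP5SA against GFP OE CMs (median 0.15), 2 higher and 3 lower against YAP6SA, and none in YAP6SA against GFP. The calls were 35% and 25% of the list, beside 22% and 14.7% of all tested genes. *Inhba*, which encodes the activin A subunit, was at 4.10 and 0.784 CPM in GFP, 2.44 and 1.39 CPM in YAP6SA, and 28.4 and 91.5 CPM in YAP5SA OE CMs. The YAP5SA libraries stood far above the other 4 (log2 fold change against GFP 4.56 ± 0.72 SE, edgeR FDR = 0.00267). *Bmp10*, a cardiac BMP ligand, rose by 1.18 and *Tnfrsf12a*, the TWEAK receptor gene, by 0.76 against GFP, and against YAP6SA the mitochondrial coactivator gene *Ppargc1a* fell by 1.55 (edgeR FDR = 0.0187) and *Klf15* by 0.63 (edgeR FDR = 0.0459). *Ppargc1a* was at 357 and 137 CPM in the YAP6SA libraries, 95.1 and 66.7 CPM in the YAP5SA libraries and 116 and 177 CPM in the GFP libraries.

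Downstream of the ligases, the called shares of proteasome and autophagy genes were below those of all tested genes in either direction. Of 31 proteasome genes, 4 were called higher and none lower in YAP5SA against GFP OE CMs (median 0.18), with *Psmb5*, a catalytic subunit, at 1.08 (edgeR FDR = 0.0187), *Psmb4* at 0.68 and the deubiquitinase subunit *Psmd14* at 0.58, and none was called in the other 2 comparisons. The 12.9% called higher stand beside 12.8% of all tested genes. Of 26 autophagy genes, 1 was called higher and 2 lower in YAP5SA against GFP, among them *Atg7*, an E1-like enzyme of the pathway, at 0.80 and *Wipi1* at -0.57. Against YAP6SA, 2 were called lower, among them *Map1lc3a* (-0.55), and YAP6SA against GFP gave no call. *Map1lc3a* was at 57.5 and 45.0 CPM in GFP, 95.3 and 69.5 CPM in YAP6SA, and 63.5 and 48.5 CPM in YAP5SA OE CMs, so that the YAP6SA libraries were the high ones. The calls were 11.5% and 7.69% of the list, beside 22% and 14.7% of all tested genes. Among 8 substrates of AREL1 and genes of the inhibitor-of-apoptosis family, *Htra2*, a mitochondrial protease and AREL1 substrate, was at 28.5 and 28.7 CPM in GFP, 30.7 and 42.7 CPM in YAP6SA, and 110.3 and 198 CPM in YAP5SA OE CMs. Both YAP5SA libraries were above all others (log2 fold change against GFP 2.37 ± 0.20 SE, edgeR FDR = 0.000187), and *Htra2* shares 25.6% of its exon bases with *Aup1* and 18.2% with *Loxl3* on the other strand. *Birc2* was lower by 0.47 on the log2 scale (edgeR FDR = 0.0436), none of the 8 was called in YAP6SA against GFP, and *Htra2* alone was called in YAP5SA against YAP6SA. The calls were 25% of this list against GFP, 1 in each direction, and 12.5% against YAP6SA, near the 22% and 14.7% of all tested genes.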

How the data were processed

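The authors used STAR (version not given in the sources used here) to align reads of poly-A, non-directional libraries of PCM-1-bound CM nuclei to mm10 (GRCm38, Ensembl annotation). They deposited raw read counts per gene, 1 column per library, without normalization or pooling. Reads on the 4 summary rows that name no gene (unmapped, multimapping, outside genes, ambiguous), 22.0% to 23.4% per library, were left out of library sizes. Of 54532 genes, 54495 were named from GENCODE M21 and 37 had no name there.

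Genes with a median log2 CPM over 1 in at least 1 group were kept, which left 13323. A single edgeR 4.0.16 quasi-likelihood model (R 4.3.3) took the counts of all 6 libraries after TMM scaling, with group and batch as terms. The 3 pairs of groups and their joint difference were tested, with Benjamini-Hochberg adjustment over all genes and a threshold of 0.05. The replicate number in the labels is the batch number, so the batch term pairs the libraries. Deviations from group means correlated across genes at 0.368 (GFP and YAP6SA), 0.0985 (GFP and YAP5SA) and 0.175 (YAP6SA and YAP5SA). CPM are TMM-scaled, and levels between genes were compared per kb of annotated exon. A count of 0 allows up to 3 counts, for counting error alone. Alternatives used DESeq2 1.42.0, limma-voom (limma 3.58.1), other scalings, filters, thresholds and sets of libraries, and each library was left out in turn.

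The members and the gene lists were chosen with earlier results of these data known. Named were all 9 members, and from each list and comparison at most 3 called genes with the largest change, the same direction in both batches and a mean log2 CPM of at least 1. Further called FOXO targets (*Cat*, *Sod2*, *Sesn1*, *Insr*, *Fbxo31*, *Fbxo21*) were chosen after their values were seen. Some genes that the rule names are not reported here. Promoter sequences are RefSeq's for GRCm38.p6.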

Additional observations from a re-analysis of the deposited data

Results flagged for a closer look

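For 3 member and comparison pairs the batches, each with 1 library per group, lay on opposite sides of 0, and the difference between batches was not tested. *Fbxo32* in YAP6SA against GFP OE CMs was at 0.67 on the log2 scale in batch 1 and -0.91 in batch 2. *Fbxo30* in YAP6SA against GFP OE CMs was at 0.12 in batch 1 and -0.055 in batch 2. *Foxo3* in YAP5SA against YAP6SA OE CMs was at -0.10 in batch 1 and 0.040 in batch 2.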

How the results depend on the processing

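With 2 libraries per group, calls near the threshold depended on single libraries, and *Trim54*, at 47 to 101 counts, was limited by depth. Of 378 member values under alternatives, 338 kept direction and side of the threshold, 15 lost a call, 19 gained one and 6 changed sign, and the cause was not tested. Of 588 values of named list genes, 468 kept both and 120 lost the call. The sign changes came with a library left out. The log2 fold change in YAP6SA against GFP then ran from -0.77 to 0.55 for *Fbxo32*, from -0.18 to 0.23 for *Fbxo30* and from -0.41 to 0.056 for *Foxo4*, and that of *Foxo3* in YAP5SA against YAP6SA from -0.14 to 0.083.

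Members called, 0 in YAP6SA against GFP, were 1 with no filter, 2 in the fit of the 4 libraries compared and 0 to 2 with a library left out. For YAP5SA against GFP, 2 became 1 without the replicate block, 1 in the 4-library fit, 0 at an FDR of 0.01 and 0 to 4 with a library left out. For YAP5SA against YAP6SA, 1 became 2 with no filter, 2 by the likelihood ratio test, 2 by DESeq2, 0 without the replicate block, 0 at an FDR of 0.01, 3 at 0.1 and 0 to 4 with a library left out. The joint count of 3 became 0 without the replicate block, 0 at an FDR of 0.01 and 1 to 5 with a library left out. *Fbxo32* was the call gained in YAP5SA against YAP6SA with no filter, by the likelihood ratio test and by DESeq2, and in the 4-library fit it was called at an edgeR FDR of 0.0101 in place of *Trim63*. *Trim63* was the call lost without the replicate block, at an edgeR FDR of 0.0866 against GFP and 0.0659 against YAP6SA. The call of *Fbxo32* in YAP5SA against GFP held in all 8 alternatives other than leaving 1 library out.

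Genes called over the whole table, 6 in YAP6SA against GFP, were 145 with no filter, 82 by the likelihood ratio test, 55 by DESeq2, 0 without the replicate block, 276 in the 4-library fit, 2 at an FDR of 0.01 and 6 to 213 with a library left out. The 2931 in YAP5SA against GFP became 1117 at an FDR of 0.01 and 738 to 4863 with a library left out. The 1956 in YAP5SA against YAP6SA became 1152 without the replicate block, 660 at an FDR of 0.01, 3039 at 0.1 and 396 to 4160 with a library left out, and the joint 2349 became 1402, 841 at an FDR of 0.01 and 1569 to 4481. Counts of called list genes under the same alternatives were added after seeing the data. With a library left out, calls in YAP5SA against GFP ran from 2 to 14 for FOXO regulators, 1 to 14 for other muscle ligases, 1 to 12 for partners and substrates, 1 to 11 for regulators of atrophy gene transcription, 0 to 6 for autophagy, 0 to 5 for the proteasome and 1 to 3 for AREL1 substrates. In YAP5SA against YAP6SA they ran, in the same order, from 0 to 13, 0 to 12 (up to 2 of them higher), 0 to 14, 1 to 11, 0 to 5, 0 to 3 and 1 to 2.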

Other observations

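The genes whose pattern over the 6 libraries was most like each member were ranked by Pearson's r of log2 CPM among 8038 genes that averaged 4 or more. With 6 libraries that share batches and scaling, the r values are descriptions. *Trim63* was followed most closely by *1600002K03Rik* (r = 0.995), *Ccdc146* (0.995) and *Gtpbp2* (0.985), and *Fbxo32* by *Nfyb* (0.995), *D6Wsu163e* (0.99) and *Plekhm2* (0.987). *Trim55* was closest to *Eif3k* (0.978), *Irf2bpl* (0.973) and *Khdc4* (0.97), and *Fbxo30* to *Ppp2ca* (0.993), *Eva1b* (0.992) and *Arpc1b* (0.992). Of the FOXO genes, *Foxo1* was closest to *Stxbp3* (0.993), *Foxo3* to *Snap23* (0.981) and *Foxo4* to *Dcaf11* (0.999). *Arel1* was closest to *R3hdm1* (0.992) and *Adgrl1* (0.986). *Trim54* correlated at 0.987 with *Xrcc3* and at 0.98 with *Eed*. Among the members, *Trim63* correlated at 0.766 with *Fbxo32*, at 0.842 with *Foxo4* and at -0.956 with *Foxo1*.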
